A study of Mus musculus with 16 samples.

Results

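The genes described here are 38 interferon-stimulated genes of the mouse, measured array by array in B cells and myeloma of Eμ-xbp-1s transgenic mice and in nontransgenic B cells. They were listed by symbol as known targets of interferon, with earlier results of these data already known. A member was taken where the array annotation gives its symbol alone for a probe set, which held for 36 of the 38 members, with 59 probe sets, among 18193 named genes on the array. Where a gene has several probe sets, it is shown by the one with the highest mean over all 16 arrays. The probe set of Isg15 is shared with another gene and Ifi44 is not listed in the annotation, so neither was analysed here.

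The samples were hybridised 1 to an array, in 3 groups. The Eμ-xbp-1s MM group held 6 myeloma tumors that arose in Eμ-xbp-1s mice, whose ages and number of animals are not given per sample. The Eμ-xbp-1s B group held B220+ splenic B cells of 5 transgenic mice, and the nontransgenic B group those of 5 mice without the transgene, all of 20 weeks of age. The transgene carries the spliced mouse xbp-1 reading frame behind an immunoglobulin heavy chain promoter and the Eμ enhancer, which is active through B cell development and in some T cells, and is followed by an eGFP reporter. The background is C57BL/6, and 2 founder lines were kept, although the line of each array is not stated. B cells were taken with magnetic beads against B220, a surface marker of the B lineage, whereas no cell sorting is named for the tumors. Nothing in the labels says that the 6 MM arrays come from 6 mice, so their spread may be partly technical.

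Interferons are secreted cytokines that cells release on sensing foreign nucleic acid (type I) or that activated T and NK cells release (type II, interferon-γ). Their receptors act through Jak kinases on STAT proteins. A complex that holds Stat2 and Irf9 binds the interferon-stimulated response element (ISRE) after type I interferon, and the gamma-activated site (GAS) is the element known for the response to interferon-γ. The targets include proteins that block viral entry, RNA sensors, nucleases, GTPases that attack vacuoles of intracellular pathogens, and the antigen-processing machinery. Some of these genes are known to be inducible by both types.

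Values are intensities on a linear scale, computed by the authors per probe set and array. Before testing, intensities were floored at 50 and only probe sets exceeding 100 on over 20% of the arrays of both groups together were retained. Differences of log2 values were tested by limma, and a gene was called where its Benjamini-Hochberg adjusted p stayed under 0.01. A fold change of 2 raised to the log2 value therefore understates the change of a gene near the floor. The array medians ran from 69.3 to 82.9 in MM, 69.0 to 73.5 in transgenic B cells and 70.8 to 73.0 in nontransgenic B cells. The probe sets of Xbp1, the gene carried by the transgene, do not tell the spliced from the unspliced form. The brightest had 1748, 2541, 3631, 4979, 1477 and 1527 on the 6 MM arrays, 2664, 2232, 2971, 2040 and 3108 on the 5 Eμ-xbp-1s B arrays and 1802, 2452, 2148, 1917 and 2015 on the 5 nontransgenic arrays. The groups overlapped, and none of the 4 Xbp1 probe sets passed the test in any comparison.

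Marker sums of several cell types differed between the groups and stand beside the results that follow. The 7 plasma cell markers overlapped between the groups. They summed to 2271 to 12669 in MM, 8458 to 12328 in Eμ-xbp-1s B cells and 9180 to 10595 in nontransgenic B cells. In MM against nontransgenic B cells 0 of the 6 tested rose and 1 fell. Plasmacytoid dendritic cell markers summed to 1642 to 4526.5 in MM, 4077 to 6356 in Eμ-xbp-1s B cells and 6143 to 7132 in nontransgenic B cells. The summed intensity of 11 T cell markers ran from 1126 to 5702 in MM, 7467 to 9401 in transgenic B cells and 1828 to 2081 in nontransgenic B cells, and 10 of the 11 rose in Eμ-xbp-1s B cells against nontransgenic B cells. Neutrophil markers summed to 959 to 63722 in MM, 9801 to 29017 in Eμ-xbp-1s B cells and 1010 to 1882 in nontransgenic B cells. Macrophage and monocyte markers summed to 9323 to 46819 in MM, 8838 to 17081 in Eμ-xbp-1s B cells and 4150 to 6575 in nontransgenic B cells, and NK cell markers to 1059 to 6481 in MM, 4745 to 6721 in Eμ-xbp-1s B cells and 1193 to 1610 in nontransgenic B cells. Stroma and bone markers summed to 6049 to 14178 in MM, 847 to 1124 in Eμ-xbp-1s B cells and 550 to 721 in nontransgenic B cells, and 8 of the 11 rose in MM against nontransgenic B cells. Endothelial markers summed to 1081 to 2864 in MM, 949 to 1317 in Eμ-xbp-1s B cells and 935 to 1174 in nontransgenic B cells, and markers of G2 and mitosis to 3539 to 20585 in MM, 2022 to 3194 in Eμ-xbp-1s B cells and 1548 to 3332 in nontransgenic B cells. The 10 mature B cell markers summed to 958 to 14269 in MM, 16219 to 32329 in Eμ-xbp-1s B cells and 37959 to 41808 in nontransgenic B cells. On summed level the B cell markers did not overlap between the 3 groups and were lowest in MM. In bulk samples like these, fewer cells of a type and less RNA per cell cannot be told apart. The part of other cells in the results below was not tested.

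Promoter stretches of some members described below, each with a motif match, are shown first. Gbp2, Cxcl10 and Rsad2 among them did not pass the test in any comparison. Promoter windows of 300 bases, from 250 bases before to 50 bases after the RefSeq transcript start (GRCm38.p6), were available for 31 of the 38 members, in 38 windows. The ISRE core was searched as GAAA, any 2 bases, and GAAA, on both strands, and the GAS as TTCNNNGAA, which reads the same on both strands. The ISRE core lay in 18 of the 38 windows (47.4%), against 3.44% of all 32851 promoter windows, and the GAS in 8 (21.1%), against 8.30%. The letters TTTC mark an ISRE repeat unit read from the other strand. Capitals mark the matches in each stretch below, which are written from the 5′ to the 3′ end of the gene's strand.

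Ifitm2 (chr7:140955973-140956032, minus strand), an IFITM gene higher in both transgenic groups: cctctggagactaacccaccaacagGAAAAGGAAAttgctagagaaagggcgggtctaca
Ifitm3 (chr7:141010715-141010743, minus strand), where an ISRE core and a GAS share bases: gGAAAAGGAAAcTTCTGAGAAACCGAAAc
Ifih1 (chr2:62646206-62646233, minus strand), a sensor higher in both transgenic groups: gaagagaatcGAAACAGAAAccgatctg
Igtp (chr11:58199486-58199544, plus strand), a GTPase with a GAS beside an ISRE core: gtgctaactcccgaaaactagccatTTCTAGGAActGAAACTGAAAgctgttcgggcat
Ifit2 (chr19:34550444-34550486, plus strand), with a GAS alone: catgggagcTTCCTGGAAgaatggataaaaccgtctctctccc
Gbp2 (chr3:142620579-142620638, plus strand), a GTPase that varied between tumors: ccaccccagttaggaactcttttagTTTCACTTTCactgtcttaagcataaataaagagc
Cxcl10 (chr5:92349068-92349127, minus strand), a chemokine that varied between tumors: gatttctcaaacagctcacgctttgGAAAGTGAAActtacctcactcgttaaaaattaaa
Rsad2 (chr12:26456538-26456597, minus strand), an antiviral effector high on 3 arrays: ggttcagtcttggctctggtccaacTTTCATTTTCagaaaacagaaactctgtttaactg

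A match is a description of the letters and not of binding. Ifitm1 and Oasl2, described below, had no match in their windows, and nothing about binding follows from that. The plot of motif positions shows where the matches lie relative to the transcript start.

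**Figure D1:**
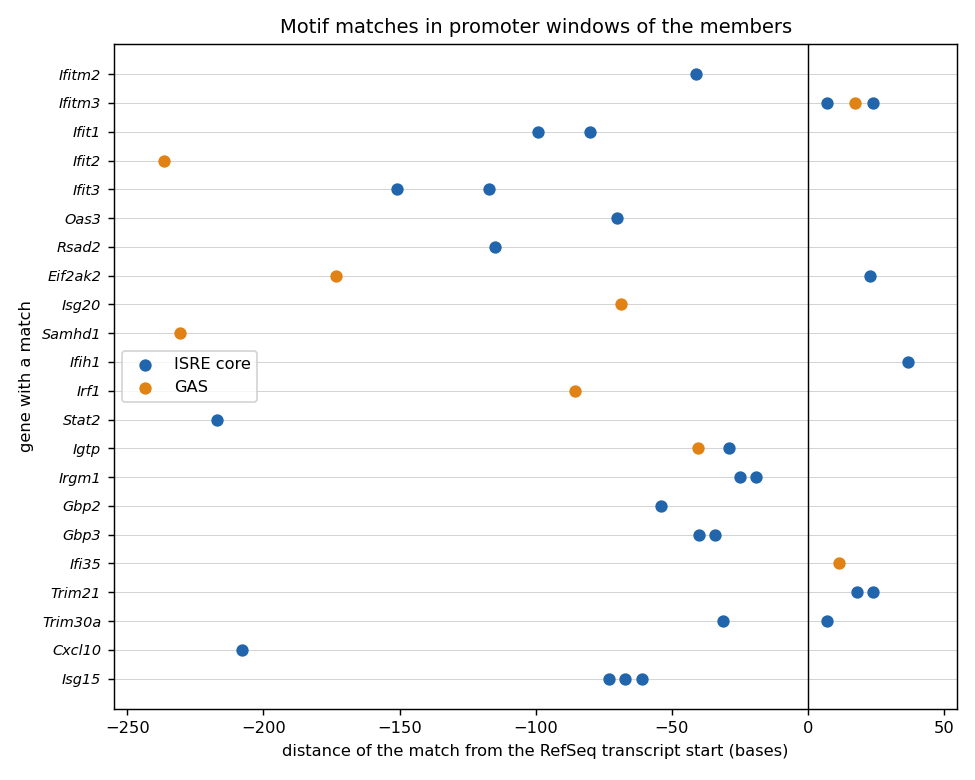
Matches of the ISRE core (blue) and the GAS (orange) in the promoter windows of the interferon-stimulated genes. The x axis is the distance from the RefSeq transcript start in bases and the y axis the gene; genes without a match are not drawn, and most matches lie before the start, with Ifitm3, Ifih1, Trim21, Ifi35 and Eif2ak2 among those after it.

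The IFITM membrane proteins, which restrict the entry of enveloped viruses, gave the largest differences among the members in both comparisons with nontransgenic B cells. Ifitm3 had 2341, 2966, 2019, 4446, 2886 and 819 on the MM arrays, 1893, 1646, 1027, 1842 and 2219 on the Eμ-xbp-1s B arrays and 157, 157, 186, 269 and 180 on the nontransgenic B arrays. Every MM and Eμ-xbp-1s B array lay above every nontransgenic array, with MM replicate 6 the lowest of them. Ifitm3 was 8.99-fold higher in Eμ-xbp-1s B cells than in nontransgenic B cells (log2 3.17, standard error 0.22, adjusted p = 2.07e-06, limma) and 12.4-fold higher in MM (log2 3.63, standard error 0.35, adjusted p = 4.33e-05). Ifitm2 had 811, 1270, 1036, 4299, 2258 and 611 in MM, 959, 878, 558, 1078 and 1035 in Eμ-xbp-1s B cells and 85.1, 102, 124, 141 and 101 in nontransgenic B cells. It was 8.07-fold higher in Eμ-xbp-1s B cells (log2 3.01, adjusted p = 1.66e-06) and 12.5-fold higher in MM (log2 3.64, adjusted p = 0.00015) than in nontransgenic B cells. Ifitm1 had 801, 1022, 490, 1428, 954 and 190 in MM, 453, 425, 482, 868 and 517 in Eμ-xbp-1s B cells and 105, 90.6, 112, 94.0 and 69.0 in nontransgenic B cells. Neither transgenic group overlapped with the nontransgenic one. It was 5.70-fold higher in Eμ-xbp-1s B cells (log2 2.51, adjusted p = 1.05e-05) and 7.38-fold higher in MM (log2 2.88, adjusted p = 0.000717). MM was not shown to differ from Eμ-xbp-1s B cells, at log2 0.37, 0.63 and 0.46 for Ifitm1, Ifitm2 and Ifitm3, with adjusted p of 0.627, 0.383 and 0.457. The neutrophil and macrophage marker sums above were also higher in Eμ-xbp-1s B cells than in nontransgenic ones, and the 2 highest Ifitm2 values lay on MM replicates 4 and 5, where neutrophil markers summed to 63722 and 47467. On MM replicates 1, 2, 3 and 6, with neutrophil sums of 959 to 1884, Ifitm3 was at 819 to 2966, against 157 to 269 in nontransgenic B cells, and macrophage markers (28897, 29994, 28490 and 9323) and stroma markers (6049 to 14178 on all MM arrays) were also above every nontransgenic array. The part of these cells in the IFITM values was not tested. Ifitm6 was at 53.5 to 4471 in MM, 162 to 922 in Eμ-xbp-1s B cells and 31.3 to 48.8 in nontransgenic B cells. It was chosen after its values were seen, and all its nontransgenic arrays lay under the floor. A test of it therefore adds nothing to the results of the other IFITM genes. Ifitm5, Ifitm7 and Ifitm10, listed beside it, were too low for the test in every comparison.

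**Figure D2:**
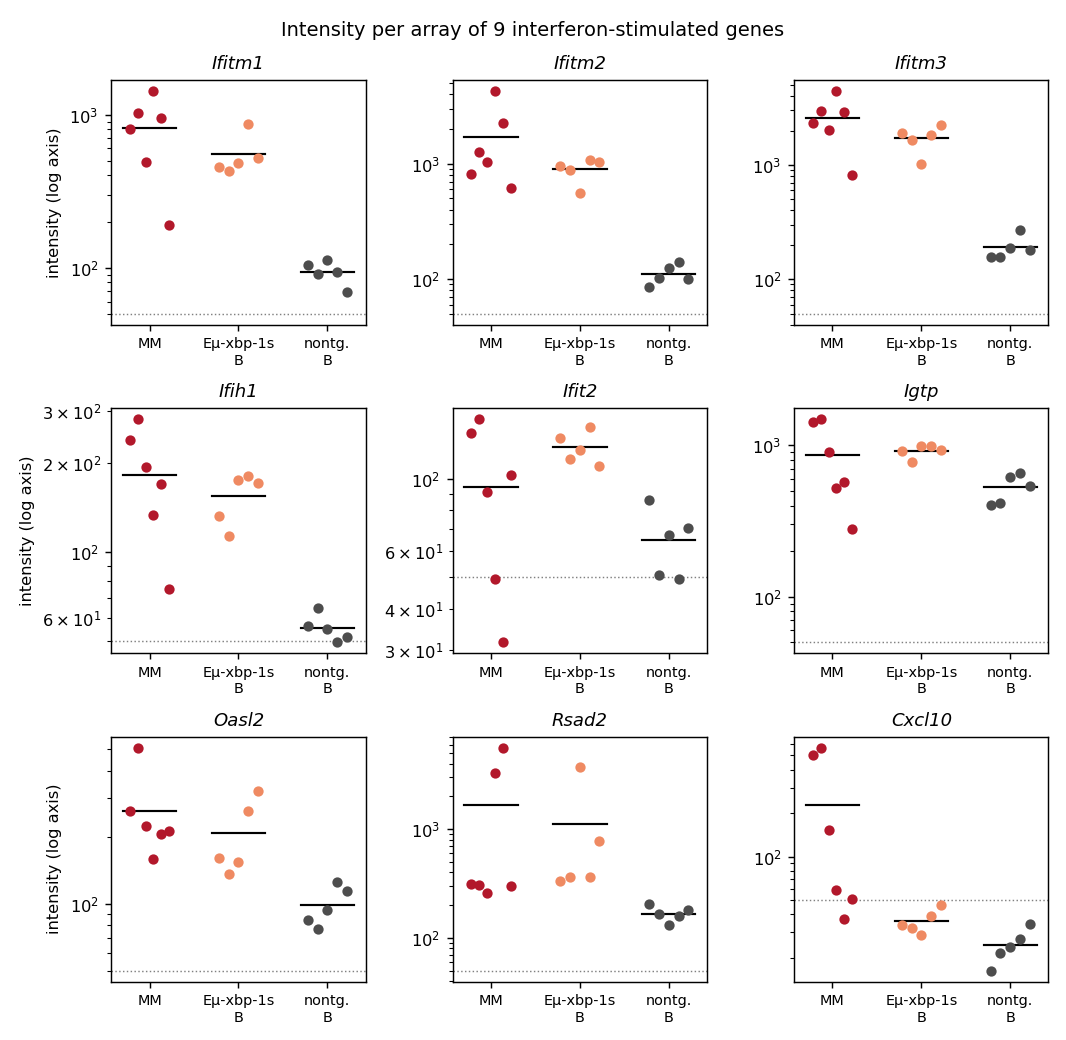
Intensity of 9 members on every array (points, log axis) with the mean of each group as a bar, for MM (n = 6), Eμ-xbp-1s B cells (n = 5) and nontransgenic B cells (n = 5). The dotted line is the floor of 50; all IFITM and Rsad2 points of MM and of Eμ-xbp-1s B cells lie above the nontransgenic points, with 3 Rsad2 points (3302, 5609 and 3711) far above the rest.

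In Eμ-xbp-1s B cells against nontransgenic B cells, 6 of the 31 members tested rose and 0 fell, where 3.28% of the 10436 genes tested rose and 0.192% fell. The 6 were Ifitm1, Ifitm2, Ifitm3, Ifih1, Ifit2 and Igtp. At an adjusted p under 0.05, 8 members rose and 0 fell, where 1023 of 20596 probe sets rose and 387 fell. No nontransgenic array of Ifih1 or Ifit2 was above 100. Both, and Ifitm1, passed the filter only with the transgenic arrays on which they were high. With no filter, Ifitm1 and Ifih1 kept their call and Ifit2 lost it. The median log2 change of the 31 members was 0.19, against -0.016 over all genes tested. Ifit1, Usp18, Mx1, Eif2ak2 and Cxcl10 were too low for the test. Ifih1, the cytoplasmic RNA sensor MDA5, had 240, 282, 194, 134, 170 and 75.2 in MM, 133, 113, 176, 181 and 171 in Eμ-xbp-1s B cells and 56.1, 64.7, 54.9, 49.6 and 51.7 in nontransgenic B cells, so that the 2 transgenic groups lay above the third on every array. It was 2.76-fold higher in Eμ-xbp-1s B cells (log2 1.46, standard error 0.16, adjusted p = 9.44e-05) and 3.04-fold higher in MM (log2 1.60, standard error 0.29, adjusted p = 0.00255) than in nontransgenic B cells. Of its nontransgenic arrays, 1 lay under the floor. Ifit2, an RNA-binding protein of the IFIT family, had 133, 115, 123, 144 and 109 in Eμ-xbp-1s B cells and 86.3, 50.9, 67.1, 49.5 and 70.8 in nontransgenic B cells (log2 0.96, adjusted p = 0.00395). Igtp, an interferon-γ-inducible GTPase, had 922, 781, 996, 984 and 936 in Eμ-xbp-1s B cells and 400, 417, 620, 661 and 535 in nontransgenic B cells (log2 0.83, adjusted p = 0.00839). Ifitm1, Ifitm2, Ifitm3 and Ifih1 kept their call whichever array was left out. Igtp lost it for 9 of the 10 arrays, all but nontransgenic B replicate 4, at adjusted p of up to 0.0268, and Ifit2 for 6 (Eμ-xbp-1s B replicates 1 and 4 and nontransgenic B replicates 2, 3, 4 and 5), at up to 0.0143.

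The replicate numbers of the B cell groups were tried as pairs in a second fit, because all 5 same-numbered pairs deviated together, at correlations of 0.171 to 0.519. Only 1 of 5 Eμ-xbp-1s B arrays and 2 of 5 nontransgenic B arrays correlated best with the array of their own number. The labels name no pairs, so this pairing was read from the same data, and the calls in the main fit do not use it. With the replicate as a block 8 members rose instead of 6. Over all 20596 probe sets 651 rose instead of 567 and 159 fell instead of 99, so the added calls were not particular to the members. Oasl2, a 2-5A synthetase-like protein, had 263, 507, 224, 160, 207 and 213 in MM, 161, 137, 155, 262 and 325 in Eμ-xbp-1s B cells and 84.8, 76.8, 93.6, 126 and 114 in nontransgenic B cells. It missed the threshold in transgenic over nontransgenic B cells (log2 1.01, adjusted p = 0.0292), passed it in the blocked fit (adjusted p = 0.00282) and passed it in MM against nontransgenic B cells (log2 1.32, standard error 0.26, adjusted p = 0.0045). Rtp4, a receptor-transporting protein, passed in the blocked fit as well, with adjusted p of 0.00568 against 0.0403 without it. It had 228, 447, 300, 88.3, 114 and 250 in MM, 356, 359, 311, 645 and 832 in Eμ-xbp-1s B cells and 148, 119, 228, 324 and 223 in nontransgenic B cells, and the 2 B cell groups overlapped. Of the other 2-5A synthetases, Oas2, Oas3 and Oasl1 had medians of 229, 242 and 317 in transgenic B cells, and none of them passed in any comparison.

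**Figure D3:**
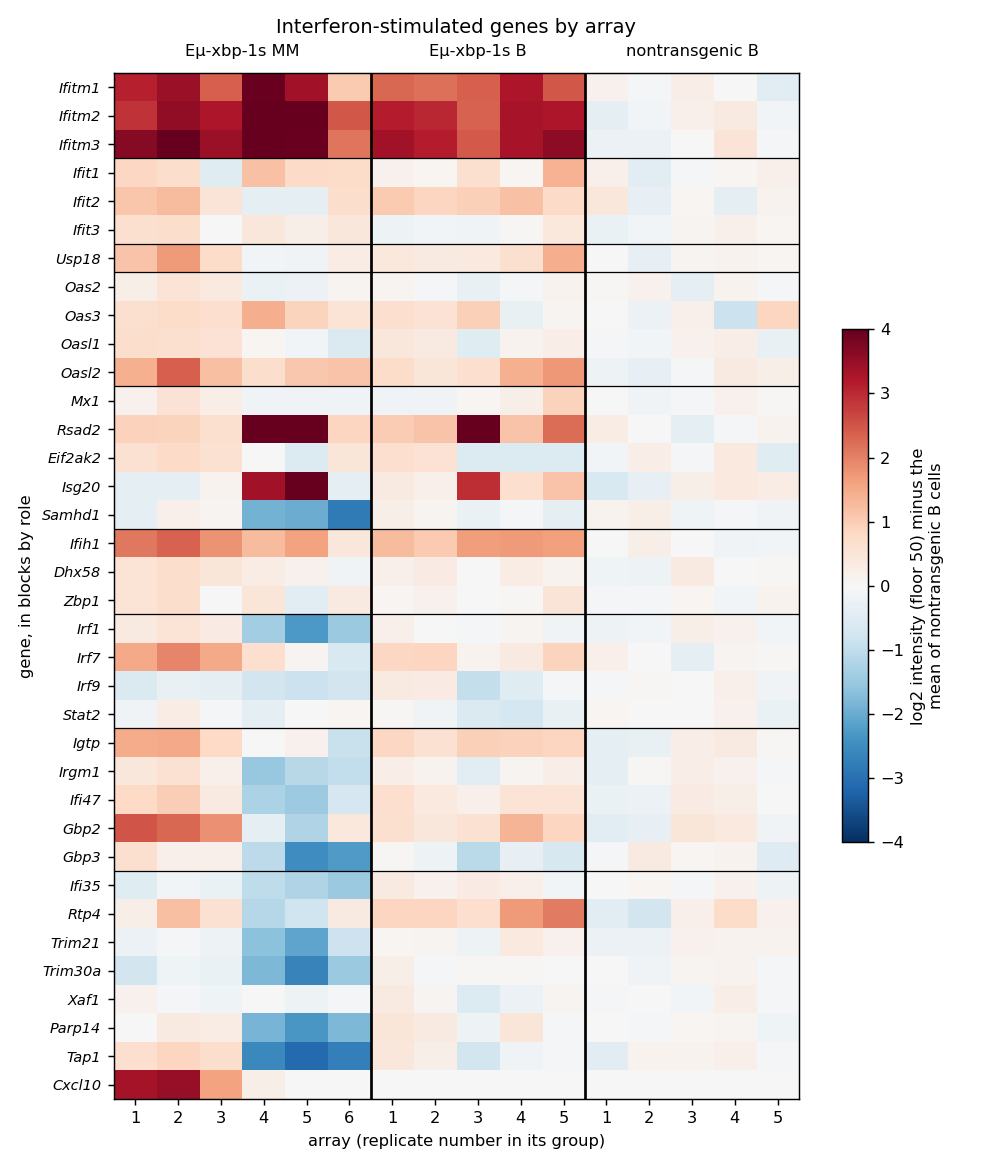
Log2 intensity of 36 interferon-stimulated genes (rows, in blocks by role) on 16 arrays (columns: MM, Eμ-xbp-1s B, nontransgenic B, by replicate), minus the mean of the nontransgenic arrays, with intensities under 50 set to 50; colours are capped at 4 in each direction. The IFITM rows are red on every MM and Eμ-xbp-1s B array, and the lower rows divide the MM arrays.

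In MM against Eμ-xbp-1s B cells no member passed the test of the 35 tested, in either direction, where 1.49% of 11241 genes rose and 1.67% fell. At an adjusted p under 0.05, 0 were higher and 1, Ifi35, was lower, where 958 of 22194 probe sets rose and 1394 fell. The median log2 change of the members was 0.07, against 0.0055 over all genes. This median has no settled sign, being -0.043 without MM replicate 1, -0.012 without MM replicate 2 and -0.046 without Eμ-xbp-1s B replicate 4. In MM against nontransgenic B cells 5 of 35 rose and 0 fell, where 4.66% of 11079 genes rose and 4.76% fell. These were Ifitm1, Ifitm2, Ifitm3, Ifih1 and Oasl2. Of them, Ifitm1, Ifih1 and Oasl2 passed the filter only with the MM arrays, and Ifih1 and Oasl2 lost their calls with no filter. The median log2 change of the members was 0.33, against 0.0073 over all genes. Without MM replicate 1 the median was 0.17, and without MM replicate 2 it was 0.16. Both comparisons use the MM arrays, and both comparisons against nontransgenic B cells use those 5 arrays, so the calls are not independent of each other. Irf9, the DNA-binding partner of Stat2, was at 322, 393, 370, 289, 264 and 291 in MM and 455, 492, 473, 551 and 434 in nontransgenic B cells, where the groups did not overlap, and missed the threshold (log2 -0.59, adjusted p = 0.0129). Trim30a, a RING-domain protein of the TRIM family, was likewise lower on all MM arrays, at 1153, 1720, 1592, 547, 303 and 694, against 1907, 1743, 2064, 2113 and 1809 in nontransgenic B cells (log2 -1.19, adjusted p = 0.0496).

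**Figure D4:**
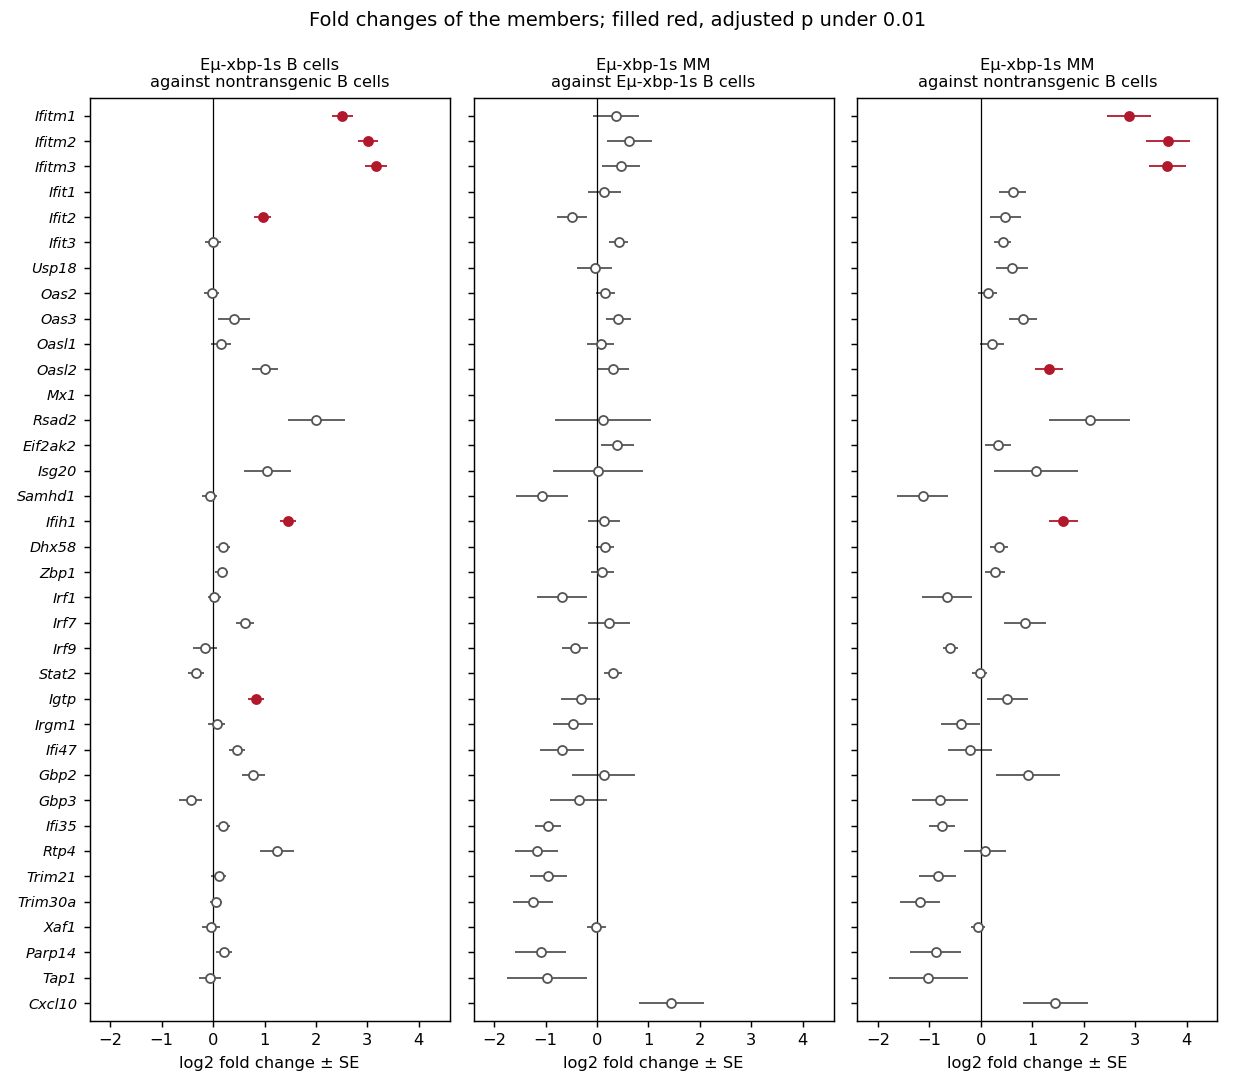
Log2 fold change with its standard error of each member in the 3 comparisons, from limma; filled red points passed at an adjusted p under 0.01. Only the IFITM genes and Ifih1 are red in both comparisons with nontransgenic B cells, and no point is red in MM against Eμ-xbp-1s B cells.

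The members varied more between the tumors than between B cell samples. The highest over the lowest array of a member had a median of 4.74-fold in MM, against 1.77-fold in Eμ-xbp-1s B cells and 1.52-fold in nontransgenic B cells. MM has 6 arrays against 5, and the same spread over all genes was not computed. The wider spread is therefore not shown to be particular to the members. MM replicate 2 was the highest MM array for 25 of the 36 members, and MM replicate 5 the lowest for 16 and replicate 6 for 11. Tap1, which carries peptides into the endoplasmic reticulum for class I molecules, had 1843, 2088, 1885, 194, 134 and 171 in MM, 1572, 1345, 691, 1036 and 1101 in Eμ-xbp-1s B cells and 857, 1265, 1275, 1332 and 1085 in nontransgenic B cells. MM replicates 1, 2 and 3 lay above all of the B cell arrays and MM replicates 4, 5 and 6 below all of them. Gbp2, a guanylate-binding protein, had 1424, 1212, 878, 190, 108 and 332 in MM, 386, 337, 376, 631 and 452 in Eμ-xbp-1s B cells and 182, 199, 345, 327 and 225 in nontransgenic B cells. Cxcl10, a chemokine that draws CXCR3-bearing T cells, had 501, 565, 153, 58.6, 37.2 and 51.0 in MM, 28.8 to 46.7 in Eμ-xbp-1s B cells and 16.3 to 34.2 in nontransgenic B cells, so that it was above the floor on 5 of 6 MM arrays and on no B cell array. Irf1, a transcription factor, was at 2443, 2787 and 2387 on MM replicates 1, 2 and 3 and at 735, 386 and 681 on the other MM arrays. None of these 4 genes passed the test in either comparison of MM.

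The gene of a ligand and markers of T cells, NK cells and mature B cells differed between the same tumors. Ifng, the gene of interferon-γ, had 200, 164 and 58.2 on MM replicates 1, 2 and 3, 4.98 to 11.9 on the other MM arrays, 11.8 to 38.4 in Eμ-xbp-1s B cells and 12.0 to 22.5 in nontransgenic B cells. Only the first 3 of these MM arrays were above the floor. Cd3d, a subunit of the T cell receptor complex, was at 566, 755 and 866 on these 3 arrays and at 33.1 to 54.5 on the other MM arrays, and Cxcl9, a second chemokine induced by interferon-γ, at 3372, 2965 and 1701 against 31.8 to 216. Ifnb1, the gene of the type I ligand interferon-β, had 52.9 to 125 in MM, 49.0 to 81.8 in Eμ-xbp-1s B cells and 38.3 to 75.0 in nontransgenic B cells. Cd3d, Cxcl9 and Ifng were singled out after their values were seen. NK cell markers summed to 6481, 6180 and 3714 on MM replicates 1, 2 and 3 and to 1059 to 1615 on the other MM arrays, and mature B cell markers to 14269, 13643 and 13731 on the first 3 and to 1792, 958 and 6714 on the others. In Eμ-xbp-1s B cells T cell markers summed to 7467 to 9401, above every MM array, and NK cell markers to 4745 to 6721. Cxcl10 was at 28.8 to 46.7 in those B cells, under the floor on every array. The part of any of these cells in the levels of Tap1, Gbp2, Cxcl10 and Irf1 was not tested.

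Rsad2 and Isg20 followed a second pattern. Rsad2, an iron-sulphur enzyme that blocks viral replication, had 314, 305, 259, 3302, 5609 and 299 in MM, 336, 363, 3711, 366 and 774 in Eμ-xbp-1s B cells and 203, 165, 130, 157 and 181 in nontransgenic B cells. Isg20, an exonuclease, had 193, 193, 275, 2572, 3962 and 194 in MM, 316, 286, 1908, 395 and 544 in Eμ-xbp-1s B cells and 163, 197, 295, 328 and 306 in nontransgenic B cells. Both were high on MM replicates 4 and 5 and on Eμ-xbp-1s B replicate 3. Alas2, the erythroid enzyme of haem synthesis, was at 6037 and 6599 on those MM arrays and 4045 on that B cell array, and at 16.3 to 559 on the other 13 arrays. Rsad2 was 4.01-fold higher in Eμ-xbp-1s than in nontransgenic B cells (log2 2.00, standard error 0.56), which missed the threshold (adjusted p = 0.0522), but without Eμ-xbp-1s B replicate 3 the adjusted p was 0.00548. In MM against nontransgenic B cells its adjusted p was 0.0756, and 0.0052 without MM replicates 4 and 5. A second probe set of Rsad2 had 970, 1994 and 1223 on the 3 high arrays and 16.7 to 236 on the others, whereas the third was at 641, 487 and 345 there and 188 to 692 elsewhere. Erythroid markers summed to 108 to 23134 in MM, 739 to 8386 in Eμ-xbp-1s B cells and 141 to 334 in nontransgenic B cells. Their part in these 2 genes was not tested.

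**Figure D5:**
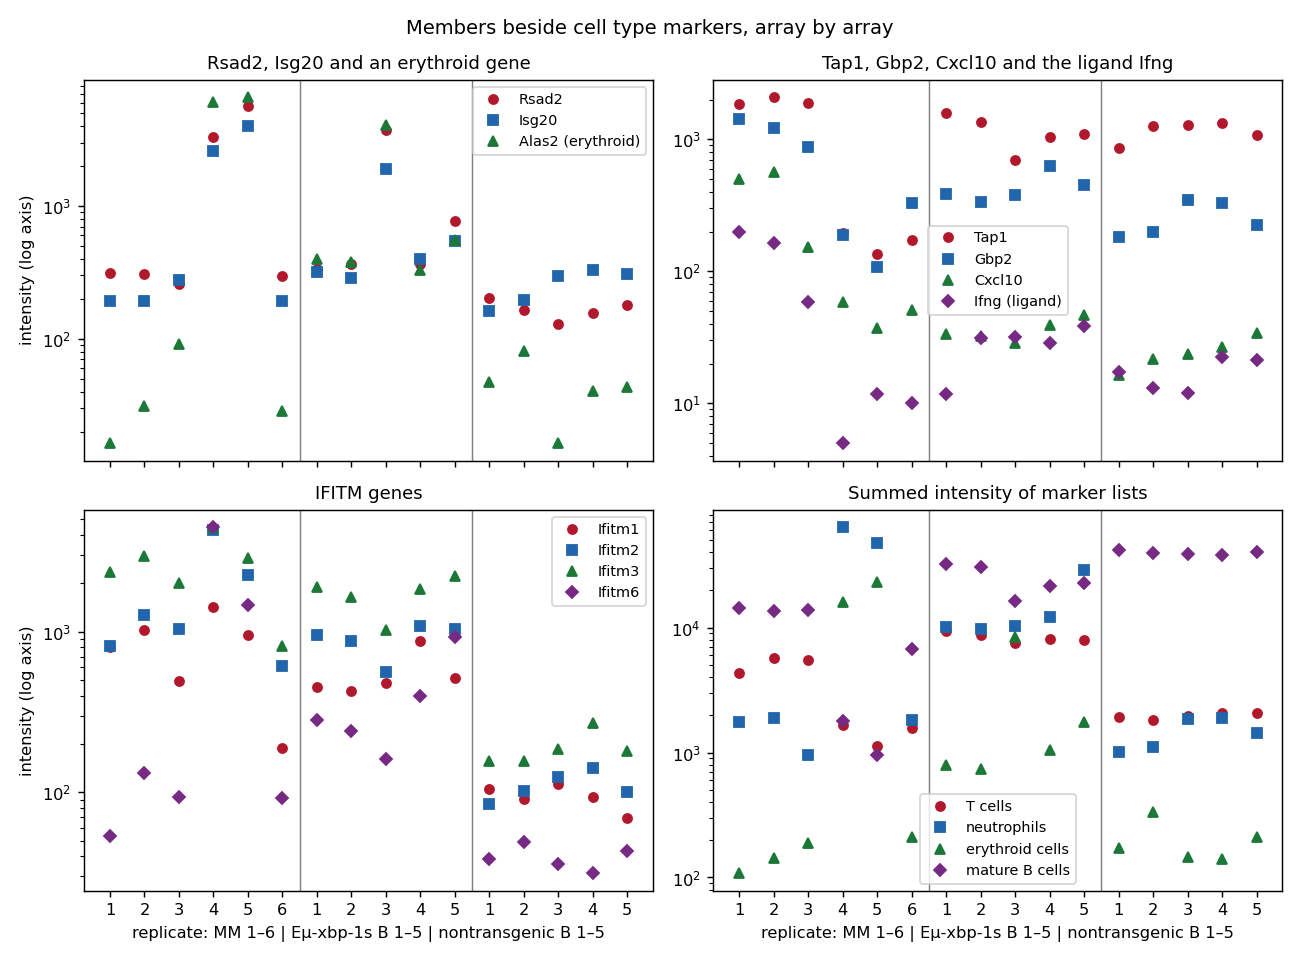
Intensity on each of 16 arrays (x axis, MM 1 to 6, Eμ-xbp-1s B 1 to 5, nontransgenic B 1 to 5; y axis on a log scale) of members beside Alas2, Ifng and Ifitm6, and of summed marker lists. Rsad2, Isg20 and Alas2 are high together on MM 4, MM 5 and Eμ-xbp-1s B 3, and Gbp2, Cxcl10 and Ifng are highest on MM 1, 2 and 3.

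Other members lower in MM or higher in Eμ-xbp-1s B cells missed the threshold. Samhd1, a dNTP hydrolase, was at 2083, 3147, 3001, 737, 691 and 392 in MM and 2471 to 3210 in nontransgenic B cells (log2 -1.13, adjusted p = 0.129, limma). Its 5 probe sets disagreed in direction. The others had means in MM and nontransgenic B cells of 875 and 1495, 154 and 295, 888 and 733, and 807 and 709. Ifi35 was at 688, 897, 794, 478, 416 and 339 in MM and 826 to 1074 in nontransgenic B cells (adjusted p = 0.0452, limma). Irf7, which amplifies type I interferon, was at 176, 180, 109, 127 and 182 in Eμ-xbp-1s B cells and 114, 97.4, 77.0, 107 and 102 in nontransgenic B cells, with adjusted p of 0.059. Ifit3, Oas2, Dhx58, Zbp1, Stat2, Xaf1 and Irgm1 did not pass in any comparison. Mx1 was below the filter in all comparisons, at 17.4 to 81.4 in MM, 38.6 to 104 in Eμ-xbp-1s B cells and 36.1 to 61.9 in nontransgenic B cells, and RefSeq annotates it as a transcribed pseudogene.

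The other genes of the pathway are given as counts, to be read against the 3.28% of all genes that rose and 0.192% that fell in Eμ-xbp-1s B cells. Of 7 ligand genes measured, 2 were tested and 0 passed, and 0 of 11 negative regulators passed. Of 10 receptors and signal transducers measured, 9 were tested and Ifngr1, a chain of the interferon-γ receptor, rose (log2 1.24, adjusted p = 0.00165), at 990, 914, 652, 782 and 554 in Eμ-xbp-1s B cells and 400, 397, 270, 294 and 278 in nontransgenic B cells. Of 17 sensors and adaptors 1 rose, the kinase Ikbke (log2 1.43, adjusted p = 0.000234), and of 38 other interferon-stimulated genes tested 2 rose, Parp12 (log2 1.30, adjusted p = 3.11e-05) and the GTPase Iigp1 (log2 1.45, adjusted p = 0.00808), with 0 fallen in both lists. In MM against nontransgenic B cells 2 of 41 other interferon-stimulated genes rose, Iigp1 (log2 2.95) and Parp12 (log2 1.63), and 4 fell, namely Pml, Slfn8, Ifi203 and Oas1c, where 4.66% of all genes rose and 4.76% fell. Also lower there were 2 of 11 negative regulators, Irf2 and Pias1, and 3 of 17 sensors and adaptors, Ticam1, Irf5 and Unc93b1. Their log2 changes were -0.59 to -1.51. Of 10 receptors and signal transducers and 2 ligand genes tested there, 0 passed. In MM against Eμ-xbp-1s B cells only Slfn8 changed of these lists (log2 -1.63, adjusted p = 0.00253, limma). It was 1 of 40 other interferon-stimulated genes tested, where 1.49% of all genes rose and 1.67% fell.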

How the data were processed

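RNA of 6 Eμ-xbp-1s MM samples, 5 Eμ-xbp-1s B cell samples and 5 nontransgenic B cell samples was hybridised to Affymetrix mouse arrays. The deposited intensity of each probe set was made by the authors in dChip, which scaled every array to one of median brightness and fitted a model to the difference between perfect match and mismatch probes. The members and gene lists were chosen with earlier results of these data known, and the list of other IFITM genes after its values were seen. Groups and replicate numbers came from the sample labels.

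Of 45101 probe sets, 34945 have 1 gene in the platform annotation, 932 have several and 9160 are unnamed; 64 controls were left out. After a floor of 50 and a filter (above 100 on over 20% of arrays), log2 intensities were tested by limma 3.58.1 under R 4.3.3 (lmFit, then eBayes, with a separate fit per pair of groups and Benjamini-Hochberg adjustment over 20596, 22194 and 21894 probe sets). Figures were drawn with matplotlib 3.10.9 and tables made with pandas 2.3.3 in Python 3.11.15. The fit was tested on simulated data. Precision is limited by how many arrays each group has. B cell arrays of the same number in both groups deviated together from their group means, at correlations of 0.498, 0.519, 0.210, 0.171 and 0.496. They were tried as pairs on this ground in the replicate block alone, as the labels name no shared litter or day. Only 1 of 5 Eμ-xbp-1s B arrays had its own number as best partner. The settings varied were the floor (16 or 100, or a pseudocount of 50 in its place), the filter (none, or by standard deviation), quantile normalization, a common fit of all 3 groups, trend with robust variance, a replicate block, averaged probe sets per gene, an adjusted p under 0.05, each array left out, and MM replicates 4 and 5 left out together. The named genes are all members, up to 6 past the test per pathway list, direction and comparison, and Xbp1.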

Additional observations from a re-analysis of the deposited data

Results flagged for a closer look

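In 8 of 108 pairs of member and group, 1 array stood far from the others of its group, and all 8 were the highest of their group. Chance gives about 1 in 20 where values are normally distributed, which was not checked for these linear intensities. The count therefore cannot be read against that rate. In Eμ-xbp-1s B cells these were Rsad2 at 3711 and Isg20 at 1908, both on replicate 3, against 336 to 774 and 286 to 544 on the other arrays, Ifitm1 at 868 on replicate 4 against 425 to 517, and Usp18, the ISG15 protease, at 199 on replicate 5 against 95.1 to 114. In MM they were Oas3 at 440 on replicate 4 against 234 to 296, and Oasl2 at 507 on replicate 2 against 160 to 263. In nontransgenic B cells they were Ifitm3 at 269 on replicate 4 against 157 to 186, and Xaf1 at 445 on replicate 4 against 346 to 369. Leaving out Eμ-xbp-1s B replicate 3 gave Rsad2 an adjusted p of 0.00548 (limma). Why these arrays stood apart was not tested.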

How the results depend on the processing

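With each array left out in turn, between 4 and 6 members rose in Eμ-xbp-1s B cells against nontransgenic B cells. In MM 0 rose compared with transgenic B cells and between 4 and 6 against nontransgenic B cells, with 0 lower throughout. Over all probe sets, 417 to 668 rose and 35 to 107 fell in the first comparison, of 21271 to 21514 tested. In the second 98 to 470 rose and 136 to 737 fell, of 21739 to 21961. In the third 415 to 1335 rose and 640 to 1785 fell, of 21415 to 21771. The counts moved by over 1.5 times in MM only. In MM against Eμ-xbp-1s B cells 1 member, Ifi35, fell with all 3 groups in a single fit and at an adjusted p under 0.05, against 0. Of all 22194 probe sets 1156 and 1394 fell in these settings, against 423. In MM against nontransgenic B cells 1 fell, Irf9, with a floor of 100, a pseudocount of 50 or the mean of the probe sets. There 3 fell at an adjusted p under 0.05, and 3 rose with no filter on low values, against 0 and 5. Of all 21894 probe sets 1223, 1265 and 2724 fell with the floor of 100, the pseudocount and the wider threshold, against 1236. With averaged probe sets 579 of 11099 genes fell. With no filter 440 of 45037 probe sets rose, against 864 of 21894. The replicate block gave 8 higher in transgenic over nontransgenic B cells, 0 in MM over transgenic B cells and 4 in MM against nontransgenic B cells. Over all probe sets it gave 651 of 20596, 247 of 22194 and 903 of 21894 higher in these comparisons. For MM the numbers do not pair the samples. Oasl2 in MM against nontransgenic B cells lost its call without nontransgenic B replicates 1, 2, 3 or 5, at adjusted p of 0.0105 to 0.0161, and with the replicate block. Rsad2 in MM against nontransgenic B cells gained a call without MM replicates 4 and 5 together (adjusted p = 0.0052), and Ifit1 there without MM replicate 3 (0.00421). Ifih1 lost both calls with a floor of 100 (adjusted p = 0.0228 and 0.0307) and that in MM with no filter (0.0143), as did Oasl2 (0.0202). In transgenic over nontransgenic B cells Ifit2 lost its call with a floor of 100 (0.0858), no filter (0.0207) and the common fit of all 3 groups (0.112), and Igtp with no filter (0.0318), the standard deviation filter (0.0183), quantile normalization (0.0228) and the common fit (0.350). The cause of these moves was not tested. No gene that passed the test changed direction. The median log2 change of the members lay between -0.046 and 0.15 in MM over transgenic B cells and between 0.16 and 0.42 in MM against nontransgenic B cells as single arrays were left out, and in the second it was 0.22 with a floor of 100. The number of arrays and the floor of 50 limit what the low genes can show.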
